A study of Mus musculus with 61 samples.

Results

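Pdyn, Tac1 and Slc35d3 are 3 genes of direct-pathway neurons of the striatum, and their RNA was followed through 61 libraries of sorted nuclei from the nucleus accumbens of the mouse, a ventral striatal region. They were taken by name from the deposited count table, where they are 3 of 55401 rows. All mice were male and carried the reporter LSL-eGFP::L10a, which puts green fluorescence on the ribosomal protein L10a once Cre recombinase switches it on, together with either D1-Cre or D2-Cre. Nuclei were therefore sorted by the activity of the Cre driver and not by the peptide genes themselves. Saline or morphine was given on 15 days, 30 days of withdrawal in the home cage followed, and tissue was taken 1 h after a challenge injection. In each group name the letter of the repeated drug precedes that of the challenge: SS had saline at both times, SM saline and then morphine, MS morphine and then saline, and MM morphine at both times. D1-Cre mice gave 8 libraries in SS, 8 in SM, 9 in MS and 7 in MM, and D2-Cre mice gave 7 in SS, 7 in SM, 8 in MS and 7 in MM. Neither the age of the mice, nor the dose each received, nor whether a library came from 1 mouse or a pool is given in the sources used here, so that p-values measure the spread between libraries.

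Projection neurons of the striatum form a direct pathway, whose cells carry the dopamine D1 receptor, and an indirect pathway, whose cells carry the D2 receptor. Direct-pathway cells are known to make dynorphin and substance P beside GABA, and indirect-pathway cells enkephalin. Pdyn encodes prodynorphin, which is cut into dynorphins that act on the kappa opioid receptor. Tac1 encodes the precursor of substance P and neurokinin A, which act on tachykinin receptors. Slc35d3 belongs to the family of nucleotide-sugar transporters and is known for its part in platelet dense granules and in the traffic of the D1 receptor to the cell surface.

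The total count per library ran from 11518606 to 26108954, with a median of 17924400. Levels are given on 2 scales. CPM, the count scaled to the size of the library, here after edgeR's TMM correction for the library's makeup, serves to compare libraries, and FPKM, which also divides by gene length but lacks the TMM correction, serves to compare genes. Over 1420 olfactory and vomeronasal receptor genes, which the striatum is not known to use, every library carried counts, with a density of 0.0571 to 0.659 FPKM that is called background here. If all genes carried this density over their length, it would make up an estimated 7.47% to 86.29% of a library's counts, with a median of 61.96%. D1 SS replicate 1 stood apart, with that lowest background (0.253 FPKM in the next D1 library), a TMM factor of 0.388 against 0.811 in the next, and 11.5 FPKM of Slc17a7, a marker of cortical glutamate neurons, against 0.743 to 2.57 in the other D1 SS libraries. The sort itself was visible in the receptor genes, with Drd1 at 14 ± 5.22 FPKM (SD, n = 32) in D1 and 2.51 ± 0.762 (SD, n = 29) in D2 nuclei, and Drd2 at 1.18 ± 0.349 (SD, n = 32) and 12.8 ± 5.8 (SD, n = 29). Lower RNA per nucleus and fewer nuclei of a class cannot be told apart in such bulk libraries.

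On the build mm10, Pdyn (ENSMUSG00000027400.11, protein coding) lies on the minus strand of chromosome 2, from 129686565 to 129699844, with 3 annotated transcripts. Tac1 (ENSMUSG00000061762.12, protein coding) lies on the plus strand of chromosome 6, from 7554879 to 7565834, with 5 transcripts. Slc35d3 (ENSMUSG00000050473.5, protein coding) lies on the minus strand of chromosome 10, from 19847916 to 19851459, with 1 transcript. Exons cover 21.7% of the span of Pdyn, 31% of Tac1 and 74.2% of Slc35d3, and the deposited FPKM divides by the whole span. No annotated gene overlaps any of the 3 on either strand. Within 20 kb there are only the pseudogene Gm44048, 13565 bp from Tac1, and the peroxisomal import gene Pex7, 2441 bp from Slc35d3. Pex7 stood at 0.742 ± 0.0531 FPKM in D1 (SD, n = 32) and 0.711 ± 0.0475 in D2 nuclei (SD, n = 29), a log2 difference of -0.15 ± 0.06 that did not pass (SE, edgeR adjusted p = 0.387).

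The 250 bases before each RefSeq start (GRCm38.p6) are shown because the 3 genes were low together in D2 nuclei and because the 2 peptide genes are known to respond to cAMP. Each is written 5′ to 3′ along its gene, and capitals mark TGACG or its complement CGTCA, the core of the cAMP response element. Pdyn is the upstream one of 2 RefSeq starts, at chr2:129699939-129700188 on the minus strand, Tac1 is at chr6:7554811-7555060 on the plus strand, and Slc35d3 is at chr10:19851460-19851709 on the minus strand.
Pdyn: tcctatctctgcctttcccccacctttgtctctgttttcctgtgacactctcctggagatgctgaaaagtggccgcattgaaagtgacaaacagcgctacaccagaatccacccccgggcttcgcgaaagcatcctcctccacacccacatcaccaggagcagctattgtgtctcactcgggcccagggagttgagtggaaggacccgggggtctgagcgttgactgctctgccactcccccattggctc
Tac1: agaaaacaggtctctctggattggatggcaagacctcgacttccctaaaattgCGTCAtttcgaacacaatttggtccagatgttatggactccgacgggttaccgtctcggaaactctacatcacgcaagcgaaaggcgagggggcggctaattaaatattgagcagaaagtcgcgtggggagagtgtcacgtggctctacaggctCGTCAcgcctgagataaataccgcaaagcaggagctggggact
Slc35d3: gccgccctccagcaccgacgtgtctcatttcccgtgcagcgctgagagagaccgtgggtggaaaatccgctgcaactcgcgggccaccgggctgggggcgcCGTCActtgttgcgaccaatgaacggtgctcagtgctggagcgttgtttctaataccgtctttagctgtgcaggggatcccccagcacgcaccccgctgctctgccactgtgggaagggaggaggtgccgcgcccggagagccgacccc
The core occurred 2 times in the Tac1 window, from 197 to 193 and from 43 to 39 bases before the start, and 1 time in the Slc35d3 window, from 149 to 145 bases before it. It was not in either Pdyn window. Of 32851 windows of this length, 17.8% held the core, so that its presence does not set these genes apart. The full element TGACGTCA (1.55% of windows), the AP-1 site TGANTCA (6.75%) and TATAAA (12.4%) were in none of the 4 windows. The E-box CACGTG, found in 6.02% of windows, was in that of Tac1 alone, from 61 to 56 bases before the start. The GC box GGGCGG (32.7% of windows) was in those of Tac1 and Slc35d3, and CCAAT (33.8%) was in all 4. Both strands were searched. The windows differed in base composition, with a GC content of 57.2% in Pdyn, 51.2% in Tac1 and 65.6% in Slc35d3. These are matches of letters and no evidence of binding.

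Pdyn was the most sharply divided of the 3 genes. In D1 nuclei its lowest, median and highest level was 35, 56.9 and 158 CPM in SS, 30.4, 67.2 and 117 in SM, 36.3, 51.9 and 181 in MS, and 57.1, 66.5 and 138 in MM. In D2 nuclei it was 11.8, 12.8 and 17 CPM in SS, 11.7, 12.7 and 18 in SM, 11.8, 15.9 and 17.5 in MS, and 12.1, 14.7 and 16.9 in MM. All 29 D2 libraries therefore lay below all 32 D1 libraries, with a gap from 18 to 30.4 CPM. Such a full split over all treatments was found for 6 of 42870 genes (0.014%), among them Sfxn1, a mitochondrial serine transporter gene that lies beside Drd1, and 4 gene models without a functional name. Within single treatments, 0.042% of genes split this way in SS, 0.0303% in SM, 0.0397% in MS and 0.14% in MM, and Pdyn did so in each.

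Tac1 differed in the same direction with more overlap. In D1 nuclei its lowest, median and highest level was 27, 41.6 and 139 CPM in SS, 22.8, 49.1 and 80.5 in SM, 28.6, 40.4 and 97.2 in MS, and 33.9, 51 and 131 in MM. In D2 nuclei it was 12.6, 15.9 and 20.1 CPM in SS, 15.7, 18.3 and 23.6 in SM, 15.7, 20.9 and 53.2 in MS, and 13.4, 18.1 and 22.3 in MM. The cell types did not overlap in SS and MM, while in SM they met between 22.8 and 23.6 CPM. In MS 1 D2 library, replicate 2 at 53.2 CPM, lay above 7 of the 9 D1 libraries. Over all treatments 25 of 29 D2 libraries lay below the lowest D1 library, and only 11 of 32 D1 libraries lay above the highest D2 library.

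Slc35d3, with fewer counts, split almost as fully as Pdyn. In D1 nuclei its lowest, median and highest level was 7.54, 10 and 31.8 CPM in SS, 4.74, 11.8 and 23.1 in SM, 7.07, 9.13 and 30.4 in MS, and 7.41, 11.1 and 25.6 in MM. In D2 nuclei it was 2.36, 3.01 and 4.24 CPM in SS, 1.9, 2.12 and 4.31 in SM, 2.48, 3.16 and 5.32 in MS, and 2.28, 3.41 and 4.59 in MM. The cell types did not overlap in any single treatment. Across treatments 1 D2 library (MS replicate 2) and 1 D1 library (SM replicate 8) crossed. Behind these values stood 33 to 92 counts per D2 library and 92 to 464 per D1 library, against 190 to 381 and 534 to 2699 for Pdyn and 235 to 759 and 420 to 2091 for Tac1.

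**Figure D1:**
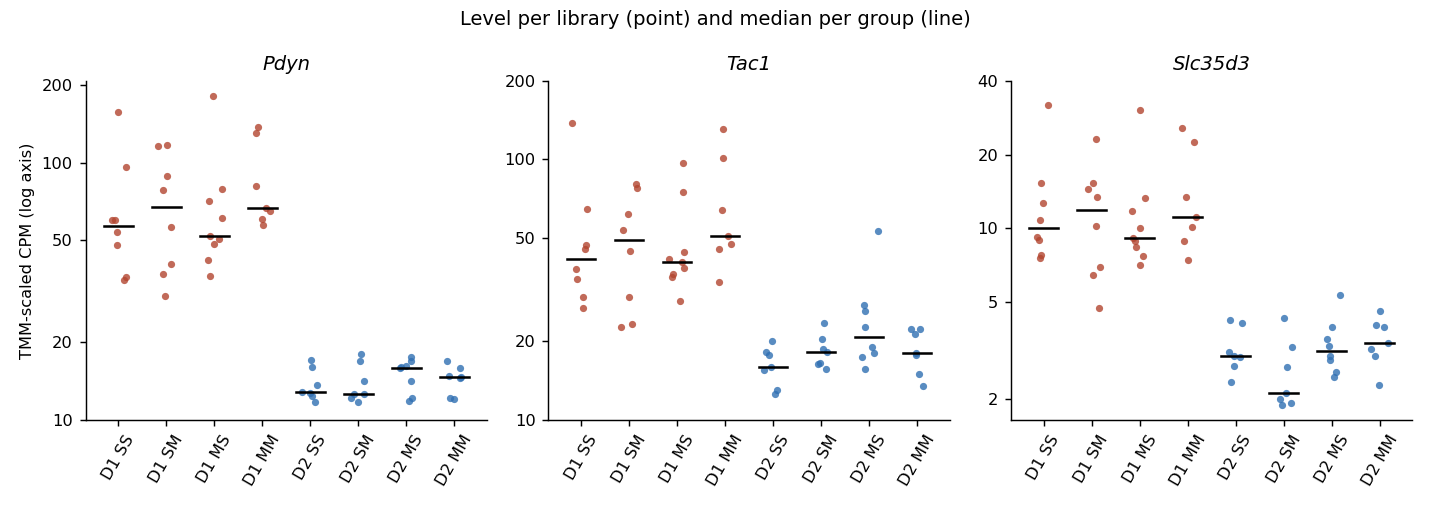
TMM-scaled CPM of Pdyn, Tac1 and Slc35d3 on log axes, with 1 point per library and a line at each group's median, for D1 (red) and D2 (blue) nuclei under SS, SM, MS and MM. All D2 points of Pdyn lie at or below 18 CPM and all D1 points at or above 30.4, while 1 D2 MS point of Tac1 reaches 53.2 CPM.

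Ordered by mean level, all 4 D1 groups stood above all 4 D2 groups for each gene, and MM was the highest D1 group each time. Pdyn ran from 85.5 ± 34.2 CPM (SD, n = 7) in D1 MM through SM, MS and SS at 68.3 ± 40.9 (SD, n = 8), then dropped to D2 MS at 15.1 ± 2.15 (SD, n = 8) and ended in D2 SS at 13.8 ± 1.98 (SD, n = 7). Tac1 ran from 67.7 ± 35.3 in D1 MM (SD, n = 7) to 48.5 ± 22.4 in D1 MS (SD, n = 9), and from 25 ± 12.2 in D2 MS (SD, n = 8) to 16.1 ± 2.75 in D2 SS (SD, n = 7). Slc35d3 ran from 14.2 ± 7.07 in D1 MM (SD, n = 7) to 11.8 ± 6.04 in D1 SM (SD, n = 8), and from 3.5 ± 0.763 in D2 MM to 2.61 ± 0.904 in D2 SM (SD, n = 7 each). In each order the step from D1 to D2 was the only gap between neighbouring groups that exceeded the larger of their SDs. For Tac1 that step was narrow, at 23.5 CPM against an SD of 22.4.

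The difference between cell types was tested with edgeR's quasi-likelihood test on counts. Averaged over treatments, the RNA of all 3 genes was lower in D2 nuclei. Pdyn had a log2 ratio of D2 to D1 of -2.35 ± 0.14 (SE, edgeR adjusted p = 2.50e-19), 5.09-fold lower. Slc35d3 had -2.0 ± 0.16 (SE, edgeR adjusted p = 7.27e-15), 4-fold lower, and Tac1 had -1.49 ± 0.15 (SE, edgeR adjusted p = 1.62e-10), 2.8-fold lower. Of all 42870 genes tested, 0.301% were called at an adjusted p under 0.05 and 0.212% were called lower in D2. By p-value Pdyn ranked 9, Slc35d3 12 and Tac1 16 among them.

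Within single treatments Pdyn and Slc35d3 were lower in D2 nuclei in all 4. Pdyn ranged from -2.19 ± 0.27 in MS (SE, edgeR adjusted p = 2.39e-07) to -2.56 ± 0.30 in MM (SE, edgeR adjusted p = 3.88e-08). Slc35d3 ranged from -1.81 ± 0.29 in MS (SE, edgeR adjusted p = 1.59e-04) to -2.18 ± 0.32 in SM (SE, edgeR adjusted p = 2.28e-05). Tac1 passed in SS at -1.71 ± 0.31 (SE, edgeR adjusted p = 0.00202) and in MM at -1.86 ± 0.31 (SE, edgeR adjusted p = 5.75e-04). It did not pass in SM, at -1.41 ± 0.30 (SE, edgeR adjusted p = 0.0565), or in MS, at -0.96 ± 0.28 (SE, edgeR adjusted p = 0.772). Calls in either direction made up 0.0467% of genes in SS, 0.0303% in SM, 0.0746% in MS and 0.056% in MM, and calls lower in D2 made up 0.035%, 0.021%, 0.0233% and 0.0303%. In SS, DESeq2 size factors moved the split of calls from 5 higher and 15 lower to 329 higher and 7912 lower.

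Whether the difference depended on treatment was tested as a cell type by treatment term. None of the 3 genes passed, with an edgeR adjusted p of 0.912 for Pdyn, 0.617 for Tac1 and 0.929 for Slc35d3. No gene of 42870 was called (0%) in this edgeR test, and 2390 had an unadjusted p under 0.05. The smaller Tac1 difference in MS is therefore not shown to differ from those in the other treatments. Without D2 MS replicate 2 it was -1.21 ± 0.28 (SE, edgeR adjusted p = 0.0993). Drd1 and Chrm4, a pair of other D1 markers, were also the highest of the group in that library. Drd1 stood at 4.95 FPKM there against 1.93 to 3.47 in the other 7 D2 MS libraries, and the muscarinic receptor gene Chrm4 at 13.4 against 3.5 to 8.97. Of 3 D2 markers, Adora2a was also the highest of the group there, at 8.57 FPKM against 3.3 to 8.53, while Drd2 at 23.2 FPKM (6.51 to 29.4 in the others) and Penk at 79.5 FPKM (29.5 to 85.8) were above the medians of the other libraries, 11.6 and 50.7 FPKM. Pdyn was at 17 CPM there, inside the range of its group, and what set this library apart was not tested.

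**Figure D2:**
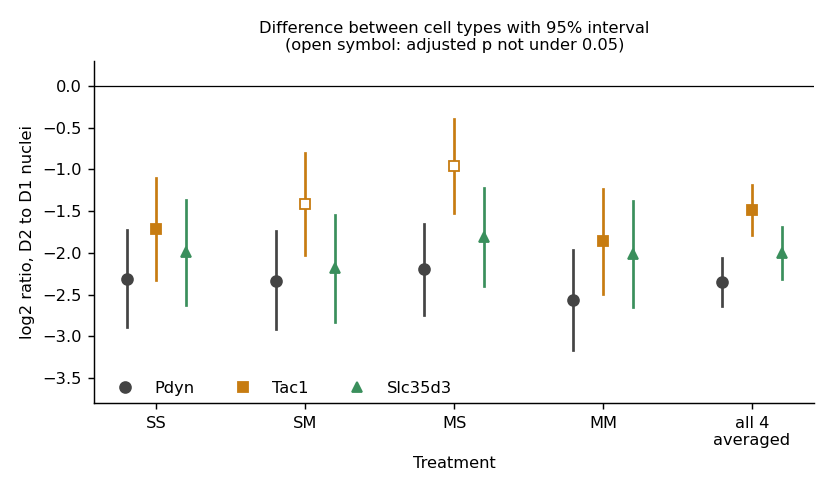
Log2 ratio of D2 to D1 nuclei for Pdyn (circles), Tac1 (squares) and Slc35d3 (triangles) under each treatment and averaged over the 4, with 95% intervals from edgeR. Filled symbols have an adjusted p under 0.05, and the open ones are Tac1 in SM at -1.41 and in MS at -0.96.

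Per length of the whole gene span, introns included, the 3 genes stood close to each other in D1 nuclei and parted in D2 nuclei. Exons cover 21.7% of that span in Pdyn, 31% in Tac1 and 74.2% in Slc35d3, and levels per exon length were not compared. Pdyn stood at 5.1 ± 1.95 FPKM, Tac1 at 4.58 ± 1.78 and Slc35d3 at 3.31 ± 1.27 in D1 (SD, n = 32), all below Drd1 and Chrm4 at 14 and 16.4. In D2 nuclei Tac1 was the highest at 1.8 ± 0.481, above Pdyn at 1.1 ± 0.124 and Slc35d3 at 0.91 ± 0.204 (SD, n = 29). Within a library, the ratio of Pdyn to Tac1 FPKM was 1.13 ± 0.198 across D1 libraries (SD, n = 32) and 0.637 ± 0.134 across D2 libraries (SD, n = 29). It exceeded 1 in 26 of 32 D1 libraries and in 0 of 29 D2 libraries, with ranges of 0.867 to 1.79 and 0.263 to 0.895. The ratio of Slc35d3 to Pdyn was 0.657 ± 0.0927 across D1 libraries (SD, n = 32) and 0.831 ± 0.178 across D2 libraries (SD, n = 29), with wide overlap.

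Part of the D2 level lies near the background. In D2 nuclei the level was 2.34 ± 0.551 times background for Pdyn, 3.92 ± 1.85 times for Tac1 and 1.96 ± 0.692 times for Slc35d3 (SD, n = 29). Tac1 reached at least 2 times background in 29 of 29 D2 libraries, Pdyn in 17 and Slc35d3 in 11, and in 1 D2 library (SM replicate 7) Slc35d3 was at 0.996 times background. In D1 nuclei all 3 genes reached it in 32 of 32 libraries. The mean D2 level was 21.6% of the D1 level for Pdyn, 27.5% for Slc35d3 and 39.4% for Tac1, and after subtraction of each library's background it was 13.2%, 14.8% and 31.9%. The same shares were 17.9% and 14.9% for Drd1 and 33.3% and 31.2% for Chrm4, so that Pdyn and Slc35d3 above background stood close to Drd1 and Tac1 close to Chrm4.

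**Figure D3:**
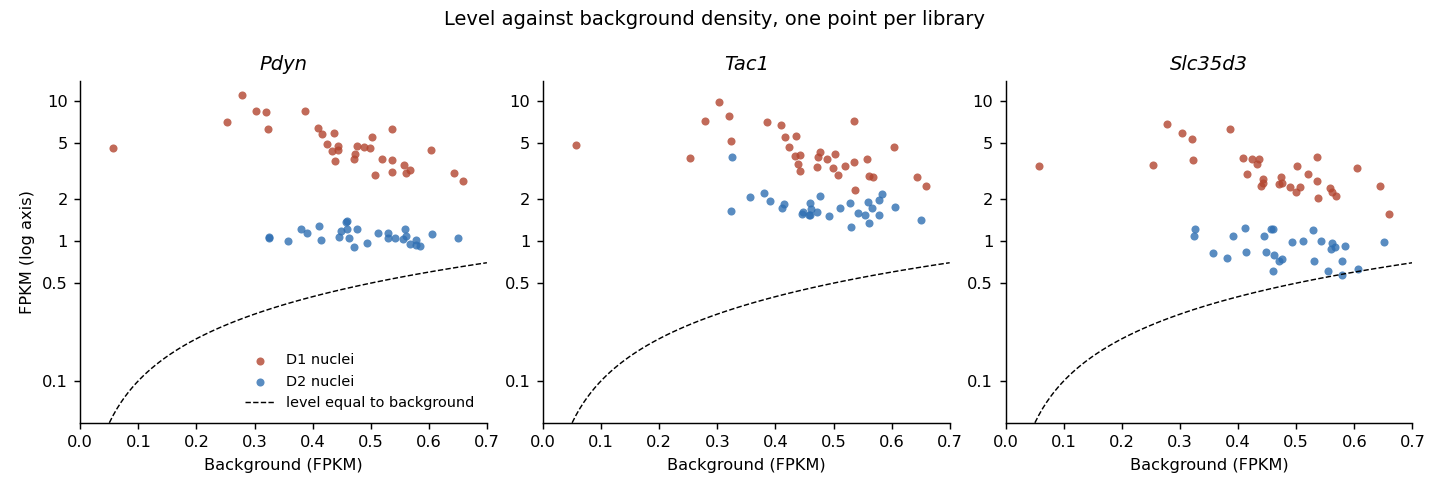
FPKM (log axis) of Pdyn, Tac1 and Slc35d3 against background density (FPKM) with 1 point per library, D1 in red and D2 in blue, and a dashed curve where the level equals the background. D1 libraries stand well above the curve, while Slc35d3 in D2 averages 1.96 times background and touches it.

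Other markers moved with the 3 genes. Of the 9 listed D1 markers 7 were lower in D2 nuclei over all treatments, the 3 genes here and Drd1, Chrm4, Sfxn1 and Isl1 (0.301% of all genes were called). The summed level of the 6 others ran from 17.8 to 77.7 FPKM in D1 and from 7.4 to 20.5 in D2 libraries, and none was at 0. Of 9 D2 markers 8 were higher in D2, namely Drd2, Penk, Adora2a, Gpr6, Sp9, Oprd1, Ptprm and Upb1, and the list summed to 10.9 to 58 FPKM in D1 and 47.5 to 135 in D2 libraries. Sp9, Ptprm and Upb1 were under 2 times background in both cell types, with Upb1 at 0.934 times in D1 and 1.05 in D2. The median log2 ratio was -1.77 over the D1 list and 0.54 over the D2 list, against 0.01 over all genes, and these lists were drawn up with earlier results of these data known. Cortical neuron markers, 1 of 8 called (Slc17a7, lower at -1.01, or -0.52 and not called without D1 SS replicate 1), summed to 4 to 21.1 FPKM in D1 and 4.17 to 7.39 in D2. Interneuron markers, 2 of 12 called (Sst and Npy, lower), summed to 11.8 to 29.4 FPKM in D1 and 8.36 to 19.7 in D2. None of 12 oligodendrocyte, 10 astrocyte, 10 microglia or 9 endothelial markers was called. The part of D1 nuclei or of free RNA in the level that remained in D2 libraries was not tested.

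Within D1 nuclei the 3 genes rose and fell together from library to library. Around the treatment means of log2 CPM, Pearson's r was 0.94 for Pdyn and Tac1, 0.96 for Pdyn and Slc35d3 and 0.95 for Tac1 and Slc35d3 (Spearman's rho 0.94 each, n = 32). Each had a permutation p of 1e-05, the smallest that 100000 draws within treatments can give, and 2e-05 adjusted over 6 pairs. Without the 2 libraries farthest from the median r was 0.92, 0.94 and 0.94. In D2 nuclei the same r was 0.45, 0.53 and 0.56 (rho 0.49, 0.51 and 0.54, n = 29), with an adjusted permutation p of 0.0168, 0.00784 and 0.00303, and 0.48, 0.60 and 0.49 without the 2 farthest.

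In D1 nuclei a high r was common among the genes above background, and in both cell types the levels moved with the background. Over 6697 genes at least 2 times above background in D1, the median r in D1 nuclei was 0.85 with Pdyn, 0.79 with Tac1 and 0.82 with Slc35d3. Tac1 ranked 407 among these genes by their r with Pdyn, and other genes were not compared. The level fell with the log2 background, with r of -0.74 for Pdyn, -0.72 for Tac1 and -0.75 for Slc35d3 in D1 (-0.89, -0.76 and -0.83 without SS replicate 1), and of -0.79, -0.68 and -0.62 in D2. Once the background was also removed, r was 0.86, 0.91 and 0.89 in D1, with an adjusted permutation p of 2e-05 each. In D2 it was -0.13, 0.14 and 0.30, with an adjusted permutation p of 0.584, 0.584 and 0.27. After this step the relations passed in D1 nuclei and did not in D2 nuclei, and the difference between the cell types in r was not tested.

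**Figure D4:**
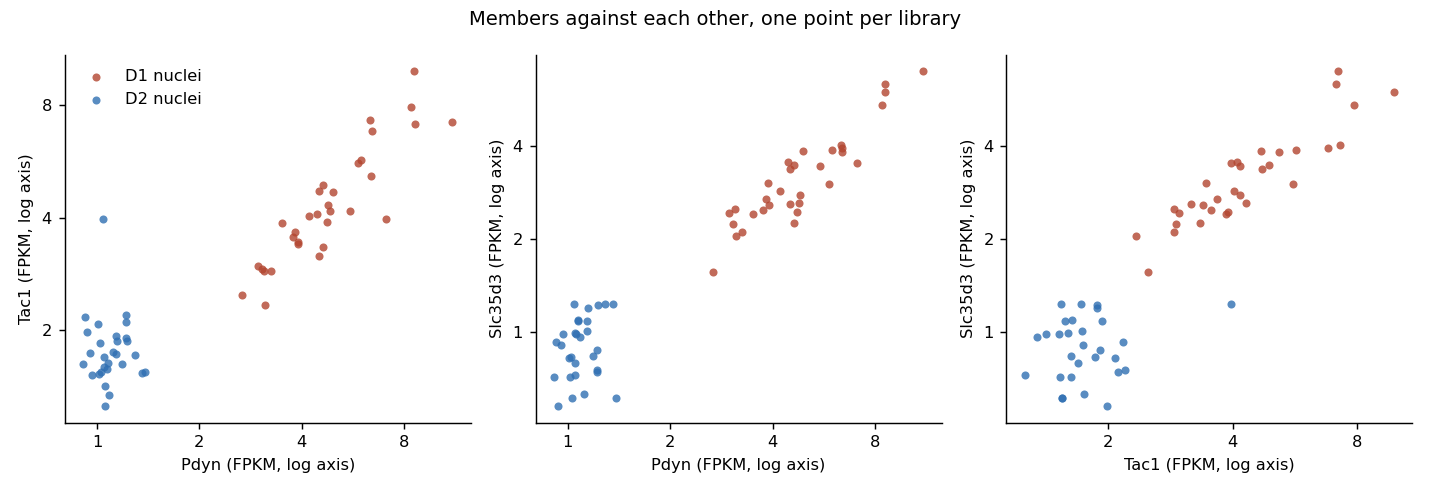
Pdyn, Tac1 and Slc35d3 against each other in FPKM on log axes, with 1 point per library, D1 nuclei in red and D2 nuclei in blue. Pdyn separates all 32 D1 from all 29 D2 libraries, and within D1 the points follow a line in each panel (r of 0.94 to 0.96 around the treatment means).

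The genes nearest in pattern were found by Pearson's r of log2 CPM among 6697 genes at least 2 times above background in D1. Gene models named Gm or Rik, some of which split as fully as Pdyn, were left out, as were ribosomal and mitochondrial genes. Over all 61 libraries, where r mainly carries the split between the cell types, the nearest to Pdyn were Sfxn1, Drd1 and Slc35d3 (0.97 each), then Tac1 (0.93) and Chrm4 (0.90). For Slc35d3 they were Pdyn (0.97), Drd1 (0.96), Sfxn1 (0.95), Tac1 (0.93) and Chrm4 (0.92). For Tac1 they were Drd1 and Chrm4 (0.94 each), Slc35d3 and Pdyn (0.93 each) and the neurofilament gene Nefl (0.92). The 3 genes were among the 5 nearest of each other in this order. They were chosen as genes of direct-pathway neurons, so that this place restates the split and is no separate result. Over all genes compared the median r was 0.45 for Pdyn, 0.59 for Tac1 and 0.50 for Slc35d3.

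Within the 32 D1 libraries another set came first. Around treatment means Pdyn was nearest to Ppp1r1b, which encodes the dopamine-regulated phosphatase inhibitor DARPP-32, and to Ankrd63, Scn2b, Cx3cl1 and Phyhip (0.98 each). The mean levels of these 5 genes lay closer between the cell types than those of Pdyn, as with Ppp1r1b at 7.7 FPKM in D1 and 6.14 in D2. Slc35d3 was nearest to the sodium channel subunit gene Scn4b (0.97), then to Pdyn and Ppp1r1b (0.96 each), Tac1 and C1qtnf4 (0.95 each). Tac1 was nearest to the activity-regulated kinase gene Plk2 (0.96), then to the calmodulin gene Calm2, Slc35d3, the granin gene Chgb and Mdh1 (0.95 each).

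Treatment differences within a cell type were fitted to the 32 D1 and the 29 D2 libraries separately. In D1 nuclei none of the 3 genes passed in any comparison. Against SS, Pdyn had a log2 difference of 0.05 ± 0.34 in SM, 0.03 ± 0.33 in MS and 0.33 ± 0.35 in MM (SE). Tac1 had -0.10 ± 0.33, -0.11 ± 0.32 and 0.36 ± 0.35, and Slc35d3 -0.12 ± 0.34, -0.11 ± 0.33 and 0.14 ± 0.35 (SE). These 9 estimates were smaller than or about as large as their errors, with edgeR adjusted p-values of 0.904 to 1. The 95% intervals reached from -0.38 to 1.04 for Pdyn and from -0.34 to 1.06 for Tac1 in MM, so that a log2 difference of 1 lay inside both.

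The response to a morphine challenge was compared between histories in the same libraries. After a morphine history, MM minus MS, the D1 estimates were 0.30 ± 0.34 for Pdyn, 0.48 ± 0.34 for Tac1 and 0.25 ± 0.34 for Slc35d3 (SE, edgeR adjusted p = 0.988 each). MM minus SM, where both groups had the morphine challenge and only the history differed, gave 0.28 ± 0.35, 0.46 ± 0.35 and 0.26 ± 0.35 (SE, edgeR adjusted p = 1 each). It shares the MM libraries with MM minus MS. As an interaction, the response differed between histories by 0.25 ± 0.48 for Pdyn, 0.58 ± 0.47 for Tac1 and 0.37 ± 0.48 for Slc35d3 (SE, edgeR adjusted p = 0.843, 0.782 and 0.795). No gene of 41083 was called by edgeR in any of the 6 D1 comparisons (0% each), with 550 to 1101 at an unadjusted p under 0.05, and DESeq2 also called 0 in each.

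In D2 nuclei, where the spread was smaller, the estimates were tighter and again none passed. Pdyn stayed within 0.11 of 0 in all 5 pairwise comparisons, with 95% intervals between -0.26 and 0.31. Its D2 level was 2.34 ± 0.551 times background (SD, n = 29), and under 2 times in 12 of 29 libraries. Background thus makes up part of the counts behind these intervals. The nearest to a call was Tac1 after a morphine history, at 25 ± 12.2 CPM in MS (SD, n = 8) and 16.1 ± 2.75 in SS (SD, n = 7), with overlapping ranges and a log2 difference of 0.61 ± 0.19 (SE, edgeR adjusted p = 0.0713). DESeq2 gave 0.66 with an adjusted p of 0.0302, in a comparison where it called 6236 of 41125 genes. By edgeR 13164 genes had an unadjusted p under 0.05 there, and Tac1 ranked 1931 by p-value. Without D2 MS replicate 2 the edgeR difference of Tac1 was 0.36 ± 0.12 (SE, adjusted p = 0.184), and with the background as a covariate 0.32 ± 0.17 (SE, adjusted p = 0.396). D2 MS libraries had a mean background of 0.435 ± 0.0724 FPKM (SD, n = 8) against 0.511 ± 0.0498 in SS (SD, n = 7), and the sum of 6 D1 markers other than these genes had a median of 12.7 FPKM in MS (8.2 to 20.5) and 9.9 in SS (7.45 to 11.5). The sum of 9 D2 markers had a median of 107 FPKM in MS (55.6 to 135) and 64.2 in SS (47.5 to 93.4). Of these 9 genes all had positive MS minus SS estimates, with a median log2 difference of 0.60. The 9 listed D1 markers, which include Tac1, Pdyn and Slc35d3 themselves, had a median of 0.11 with 3 of 9 negative. Among them Drd1 had 0.75 ± 0.24 (SE, edgeR adjusted p = 0.0713) and Chrm4 0.78 ± 0.33 (SE, edgeR adjusted p = 0.108). Sfxn1 had 0.13 ± 0.07 and Isl1 -0.03 ± 0.09 (SE). None of either list was called by edgeR. The part of these marker shifts in the Tac1 value was not tested.

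The remaining D2 comparisons gave smaller or less certain values. Tac1 had a log2 difference of -0.42 ± 0.19 in MM minus MS (SE, edgeR adjusted p = 0.973), and its response differed between histories by -0.62 ± 0.27 (SE, edgeR adjusted p = 0.991), neither of which passed. Slc35d3 had -0.32 ± 0.18 in SM minus SS (SE, edgeR adjusted p = 1) and 0.42 ± 0.18 in MM minus SM (SE, edgeR adjusted p = 0.608), and the 2 comparisons share the SM libraries. Slc35d3 was lowest in D2 SM, with a median of 2.12 CPM and 33 to 71 counts per library. No gene of 41125 was called by edgeR in any of the 6 D2 comparisons (0% each), with 1333 to 13164 at an unadjusted p under 0.05. DESeq2 called 6236 in MS minus SS, 1 in MM minus MS and 0 in the others.

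**Figure D5:**
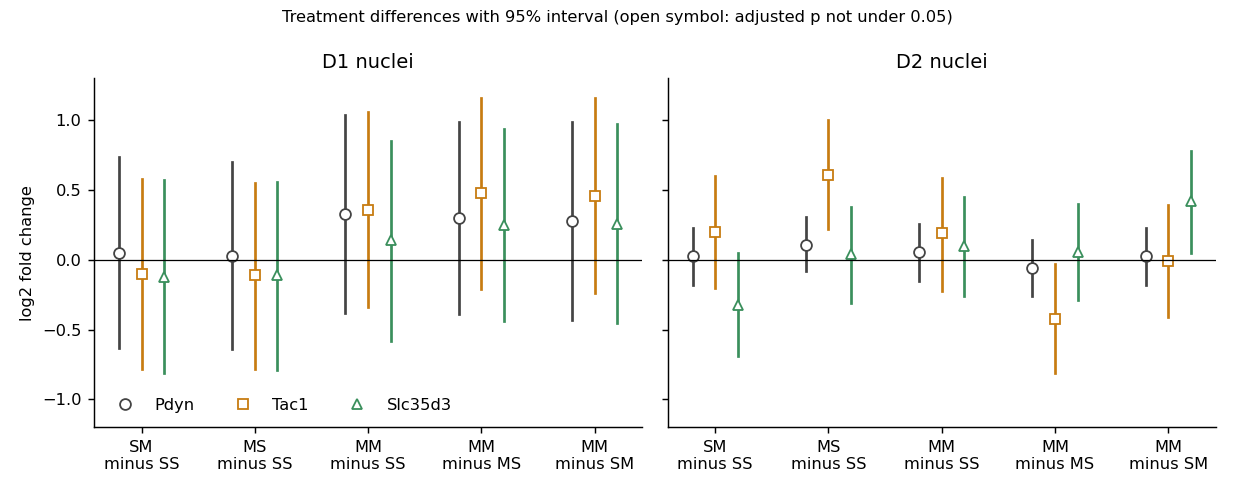
Log2 differences between treatments for Pdyn (circles), Tac1 (squares) and Slc35d3 (triangles) in D1 (left) and D2 nuclei (right), with 95% intervals from edgeR. All symbols are open because no adjusted p was under 0.05, and the D2 estimate farthest from 0 is Tac1 in MS minus SS at 0.61.

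Other genes of the peptide pathway were read from lists, over all treatments. Among 12 peptide precursor genes, 4 were lower and 1 was higher in D2 nuclei (0.301% of all genes were called). Beside Pdyn and Tac1 the lower ones were Sst, the somatostatin precursor of striatal interneurons, at -1.27 ± 0.20 (SE, edgeR adjusted p = 5.55e-05) and Npy at -0.45 ± 0.08 (SE, edgeR adjusted p = 0.00103). Penk, the enkephalin precursor of indirect-pathway cells, was higher by 1.42 ± 0.18 (SE, edgeR adjusted p = 4.03e-07), at 47.8 ± 17.1 FPKM in D2 (SD, n = 29) and 16.4 ± 8.56 in D1 (SD, n = 32). In D1 libraries Penk thus stood above Pdyn and Tac1 on this scale, which divides by the whole gene span, introns included. The part of D2 nuclei or of free RNA in this Penk level was not tested. The median of the list was -0.16, against 0.01 over all genes.

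Of 7 opioid and tachykinin receptor genes 1 was called, the delta receptor gene Oprd1, higher in D2 by 0.54 ± 0.07 (SE, edgeR adjusted p = 6.13e-08), with a list median of 0.04. Over all genes 0.301% were called and the median was 0.01. Oprk1, the receptor of dynorphin, had -0.52 ± 0.13 (SE, edgeR adjusted p = 0.056) at 1.32 ± 0.306 FPKM in D1 (SD, n = 32) and 1.03 ± 0.206 in D2 nuclei (SD, n = 29). With DESeq2 it passed at -0.60 (adjusted p = 0.0173), as it did without D2 MS replicate 2 at -0.55 (adjusted p = 0.0304) and with the background covariate at -0.28 (adjusted p = 0.00256). Tacr1, the receptor of substance P, had 0.07 ± 0.03 (SE, edgeR adjusted p = 0.408) at 1.53 times background in both. Oprm1, the receptor on which morphine acts, had 0.02 ± 0.03 (SE, edgeR adjusted p = 0.796) at 1.04 times background in D1 and 1.02 in D2. Its density over the whole gene span was thus close to the background. Exons were not counted apart from introns, so these values do not show that its RNA was absent. Both Oprk1 and Oprd1 were low, at 2.9 and 1.7 times background in D1 and 2.11 and 2.39 in D2.

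Among 17 genes for processing and storage of peptides, of which 15 had a negative estimate, 1 was called (0.301% of all genes were called). The list median was -0.16, against 0.01 over all genes. The called gene was Scg2, a granin of dense-core vesicles, lower in D2 by -0.73 ± 0.17 (SE, edgeR adjusted p = 0.031) but the call was lost without D1 SS replicate 1 (-0.67, adjusted p = 0.0594), without D1 MS replicate 2 (-0.69, adjusted p = 0.0506) and with the background as a covariate (-0.54, adjusted p = 0.0695). The prohormone convertase gene Pcsk2 had -0.12 ± 0.15 (SE, edgeR adjusted p = 0.669) and the carboxypeptidase gene Cpe -0.23 ± 0.11 (SE, edgeR adjusted p = 0.408), and both stood at 2.57 to 3.07 times background in the cell types. None of 9 peptide-degrading enzyme genes was called, with a median of -0.03. Of 27 genes of the Slc35 family 23 had a negative estimate and Slc35d3 alone was called, with a median of -0.14 against 0.01 over all genes. The closest relatives of Slc35d3 by name had -0.06 ± 0.05 for Slc35d1 (SE, edgeR adjusted p = 0.54) and 0.06 ± 0.06 for Slc35d2 (SE, edgeR adjusted p = 0.622), at under 2 times background in either cell type. In no treatment comparison was a gene of these 5 lists called by edgeR.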

How the data were processed

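Nuclei from frozen accumbens punches were sorted by fluorescence and sequenced from stranded, low-input total RNA libraries, per the labels' protocols. The authors counted reads with featureCounts on mm10 and used DESeq2, per the submitters' processing notes. No aligner, version or strand setting is given in the sources used here. Raw counts per gene, deposited by the authors, were used for all tests. The authors also deposited FPKM values, whose gene length equalled the whole gene span of GENCODE M21 for 54281 of 54281 identifiers (relative tolerance 1e-06). Of 55401 identifiers, 54349 matched that release with version and 55141 without. Genes were named by these matches.

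Counts were fitted with edgeR 4.0.16 in R 4.3.3 (TMM, filterByExpr, robust quasi-likelihood, two-sided tests, Benjamini-Hochberg adjustment over all genes, called at an adjusted p under 0.05), jointly over 61 libraries (42870 genes) and separately over 32 D1 (41083) and 29 D2 libraries (41125). The common biological coefficient of variation was 0.231, 0.28 and 0.154. Log2 CPM used a prior count of 2. The code was tested on simulated data. Alternatives were DESeq2 1.42.0, its size factors, no filter, a replicate block, log2 background as a covariate and single libraries left out.

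The 3 genes and the 13 lists (142 of 143 genes in the file) were chosen with earlier results of these data known. Named beside them are the 5 genes nearest in pattern, without gene models named Gm or Rik, ribosomal or mitochondrial genes, list members called in D2 against D1 averaged over treatments or in any treatment comparison, and Drd1, Drd2, Penk, Oprk1, Oprm1, Tacr1, Pcsk2, Cpe, Slc35d1 and Slc35d2. Other genes, such as Pex7, were named for their place. Group values are means with the SD over libraries.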

Additional observations from a re-analysis of the deposited data

Results flagged for a closer look

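Of 24 groups of libraries (3 genes in 8 groups), 5 held a library farther from its neighbours than Dixon's 95% limit allows, where chance gives about 1 in 20. They came from 3 libraries. In D1 MS replicate 2, Pdyn was at 181 CPM with the next library at 78.9, and Slc35d3 at 30.4 CPM with the next at 13.3. Drd1 was at 29.7 FPKM there against 9.08 to 15.6 in the other 8 D1 MS libraries, Chrm4 at 41.9 against 7.79 to 18.2, and Drd2 at 0.599 against 0.854 to 1.3. In D1 SS replicate 1, Tac1 was at 139 CPM with the next at 64.3, and Slc35d3 at 31.8 CPM with the next at 15.4. Without TMM scaling these were 4.9 and 3.47 FPKM, below the highest D1 SS libraries at 5.17 and 3.82. In D2 MS replicate 2, Tac1 was at 53.2 CPM with the next at 27.6, and at 3.97 FPKM it was the highest of all D2 libraries, while Pdyn there was 1.05 FPKM against a D2 mean of 1.1. The cause of these values was not tested.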

How the results depend on the processing

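Over the alternatives run, the D2 to D1 values of the 3 genes kept their direction and their calls in 114 of 120 results, and in 6 Tac1 gained a call. In SM it passed at -1.41 with DESeq2 (adjusted p = 0.0296), at -1.14 with the background covariate and at -1.41 without D1 SS replicate 1, D1 MS replicate 2 or D2 MS replicate 2. In MS it passed at -1.09 with the covariate (adjusted p = 0.00128). The cell type by treatment test, not run with DESeq2, called none of the 3 genes in any of 21 results.

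Of 234 treatment results none lost a call, and 29 estimates without a call changed sign. With DESeq2, and with its size factors in edgeR, Pdyn in D1 was -0.16 and -0.15 in SM minus SS and -0.18 with both in MS minus SS, Slc35d3 in D1 MM minus SS was -0.08 and -0.06, and Tac1 in D2 MM minus SM was 0.02 with both. With the background covariate in D1, SM minus SS was 0.21 for Tac1 and 0.15 for Slc35d3, MS minus SS was 0.27 and 0.22, and the interaction was -0.16 for Pdyn and -0.08 for Slc35d3. In D2 it gave Pdyn -0.03 in MS and in MM minus SS, 0.00 in MM minus MS and -0.09 in MM minus SM, and Slc35d3 -0.16 in MS and -0.02 in MM minus SS. Left out in turn, D1 SS replicate 1 and D1 MS replicate 2 gave D1 ranges in SM minus SS of -0.10 to 0.27 for Tac1 and -0.12 to 0.19 for Slc35d3, in MS minus SS of -0.30 to 0.31 for Pdyn, -0.31 to 0.24 for Tac1 and -0.43 to 0.19 for Slc35d3, and in the Pdyn interaction of -0.04 to 0.58. Without D2 MS replicate 2, Slc35d3 in D2 MS minus SS was -0.07. The MS libraries left out were chosen after seeing the data. The cause of these shifts was not tested.

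Tac1 in D2 MS minus SS gained a call with DESeq2, at 0.66, and with the replicate block, at 0.60 (adjusted p = 0.032). With the replicate block, MS minus SS also changed sign for Tac1 in D1 (0.03) and for Slc35d3 in D2 (-0.01). The labels do not say that a number marks a shared mouse or day. In 0 of 28 pairs of groups did all same-numbered libraries deviate together (correlation over 0.1), a demand that a partial pairing would not meet. Of 202 same-numbered pairs 72 were over 0.1, from 0 of 7 in D1 SM with D1 MM to 6 of 7 in D2 SM with D2 MM. In 38 of 202 same-numbered pairings the library of the first group correlated best with its own number. The shares that chance would give were not worked out, so these counts do not decide whether the numbers pair libraries. The block changed no other call of the 3 genes. Among other genes in D2 minus D1 averaged over treatments it gave Oprk1 -0.54 (edgeR adjusted p = 0.0175, past the threshold), Scg2 -0.71 (adjusted p = 0.0627) and Slc17a7 -0.78 (adjusted p = 0.203). Of other genes in D2 minus D1, Pcsk2 changed sign to 0.16 with the covariate and 0.06 without D1 SS replicate 1, and Slc35d1 to 0.01 with the covariate, neither called.

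Counts of called genes moved by over 1.5 times in D2 minus D1: in SS from 20 to 9812 with DESeq2 and 8241 with its size factors, in SM from 13 to 29, in MS from 32 to 95, in MM from 24 to 118 and averaged from 129 to 253 with the covariate, and in MM to 40 with DESeq2 and 73 without D1 SS replicate 1. In D2 MS minus SS the block called 8595 genes and DESeq2 6236 against 0, and in MM minus MS DESeq2 and the covariate called 1 each. Few counts, 33 to 92 per D2 library, limit Slc35d3.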
